A study of Homo sapiens with 15 samples.

Results

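DNA damage repair genes were followed through androgen treatment by the chromatin contacts of their promoters. The 46 genes comprise 9 of damage sensing and signaling, 13 of homologous recombination, 5 of non-homologous end joining, 7 of base excision and single-strand break repair, 3 of mismatch repair, 5 of the Fanconi anaemia pathway and 4 of nucleotide excision repair. A gene was given every loop with an anchor of 1 kb within 2.5 kb of its canonical transcript start, a window called its promoter here. All 46 promoters had at least 1 loop, compared with 16266 of the 19894 protein-coding promoters, and together they held 1729 of the 505995 different loops.

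Cells repair their DNA by several routes that share a signaling layer. The kinases ATM and ATR sense breaks and stalled replication forks and act through the checkpoint kinases CHEK1 and CHEK2. Breaks of both strands are mended by homologous recombination, which copies an intact template with the help of BRCA1, PALB2 and BRCA2, or by end joining, in which the Ku proteins (XRCC5 and XRCC6), DNA-PK (PRKDC) and the XRCC4 and LIG4 ligase complex join the ends directly. Damage of a single strand is handled by excision of a base, of a nucleotide stretch or of a mismatched strand. In prostate cancer these genes are known for inherited and tumor-acquired defects and for a link between androgen signaling and repair.

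The cells were LNCaP, an established androgen-responsive line of prostate cancer and here the only cell model. All groups spent 3 days in phenol red-free medium with charcoal-stripped serum, which removes steroids, and the treated groups then received the androgen dihydrotestosterone (DHT) at 10 nM. Times of DHT were 30 m, then 4 h, then 16 h, and at the longest 72 h, while the 0 m cells had ethanol vehicle. HiChIP joins DNA ends that lie close together in fixed nuclei and keeps the fragments that carry a histone mark, here H3K27ac, found at active enhancers and promoters, or H3K4me3, found at active promoters. For each time point, 2 replicates were labeled for H3K27ac and 1 for H3K4me3, 15 samples in all, but each deposited table gives a loop a single value.

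A contact is the deposited signal of a loop, which the authors scaled within each mark by TMM (trimmed mean of M values), and the contact of a promoter is the mean over its loops. Read pairs were recovered from the deposited values, all of them whole multiples of a constant step. The libraries held 2475168 to 4308555 read pairs in loops for H3K27ac and 2153262 to 10675614 for H3K4me3, the highest at 4 h. No value has a replicate error and no test between time points was possible. Intervals in brackets are 95% intervals of the ratio of read pairs and cover counting error only. As a check of the cells, all 10 promoters of prostate luminal marker genes had loops, with a median contact of 2.81 in H3K27ac, while 5 of 13 annotated marker promoters of other cell types did, with a median of 0.501.

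The promoters of CHEK2, XRCC3, LIG4 and ERCC1 are shown before the values, because they were past the threshold used below at 3 of the time points and marks and had the widest differences at 16 h. They are the GRCh37 bases just before the start site, written 5′ to 3′ on the strand of the gene, with GC boxes (GGGCGG) and CCAAT boxes in capitals on either strand.
CHEK2 (chr22:29137809-29138026, minus strand): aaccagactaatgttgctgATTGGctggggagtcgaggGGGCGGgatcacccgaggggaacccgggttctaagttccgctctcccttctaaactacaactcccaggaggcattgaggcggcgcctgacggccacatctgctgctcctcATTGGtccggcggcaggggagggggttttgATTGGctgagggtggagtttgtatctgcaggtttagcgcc
XRCC3 (chr14:104181789-104182038, minus strand): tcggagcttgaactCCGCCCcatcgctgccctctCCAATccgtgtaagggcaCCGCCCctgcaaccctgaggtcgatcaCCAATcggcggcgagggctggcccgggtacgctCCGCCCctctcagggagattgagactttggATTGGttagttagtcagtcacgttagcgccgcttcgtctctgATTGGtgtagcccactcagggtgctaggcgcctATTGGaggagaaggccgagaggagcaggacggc
LIG4 (chr13:108867885-108868134, minus strand): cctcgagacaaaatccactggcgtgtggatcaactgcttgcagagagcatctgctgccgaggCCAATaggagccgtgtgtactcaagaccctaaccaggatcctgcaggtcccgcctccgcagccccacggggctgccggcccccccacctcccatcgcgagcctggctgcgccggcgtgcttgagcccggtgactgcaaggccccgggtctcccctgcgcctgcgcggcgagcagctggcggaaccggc
ERCC1 (chr19:45927176-45927425, minus strand): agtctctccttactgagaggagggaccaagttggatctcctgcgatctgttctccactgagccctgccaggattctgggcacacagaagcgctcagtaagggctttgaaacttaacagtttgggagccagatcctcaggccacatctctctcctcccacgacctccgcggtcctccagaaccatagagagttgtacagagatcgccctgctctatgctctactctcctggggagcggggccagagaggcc
CHEK2 is shown up to the start of its divergent neighbor HSCB. In the 250 bases before the start, XRCC3 had 3 GC boxes and 5 CCAAT boxes, CHEK2 had 1 and 3, LIG4 had 1 CCAAT box, and ERCC1 had neither. Over the 46 promoters, 30 (65.2%) held a GC box against 59.1% of 19874 promoters scanned, and 19 (41.3%) held a CCAAT box against 34.3%. The letters CCGGAAGT, a site of ETS factors, were found in 5 (10.9%) against 5.12%, TTTGGCGC of E2F factors in 1 (2.17%) against 0.730%, and the full palindrome of NRF1 in 0 against 1.48%. The full palindrome of the androgen response element was in none of the 19874 windows, so that its absence from these 46 is no feature of repair genes. These shares are descriptions of letters and not of bound factors.

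The repair promoters had a median of 35 loops (quartiles 18 and 52), from 2 at LIG4 to 91 at PALB2, against 20 (quartiles 6 and 38) over all promoters with loops. Their loops had a median length of 285 kb against 225 kb, and 21.7% of them reached another protein-coding promoter or joined ends of the same promoter, against 15.1%. Of the 1729 loops, 15.6% came from the H3K27ac loop set alone, 66.98% from the H3K4me3 set alone and 17.5% from both, against 21.6%, 59.7% and 18.7% over all promoter loops. The median contact per loop was 0.867 in H3K27ac and 1.78 in H3K4me3, against 0.973 and 1.66, while the median of the contact summed over loops was 26.1 and 59.3, against 20.7 and 38.0. The median number of loops was thus higher for repair promoters, while the median contact per loop was lower in H3K27ac and higher in H3K4me3.

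LIG4, the ligase of end joining, had the highest contact per loop in both marks, above 99.0% of promoters with loops in H3K27ac and above 99.1% in H3K4me3, but over only 2 loops. In H3K27ac it was followed by PMS2, MDC1, LIG3, XRCC1 and XRCC3, and in H3K4me3 by MDC1, TP53BP1, FANCA, XRCC6 and PALB2. The lowest in H3K27ac were XRCC4 at 0.276 and FANCL at 0.306, means over the 5 times. PARP1, the sensor of single-strand breaks, was lowest in H3K4me3 at 0.417, over 3 loops and 41 read pairs in all, which is under the minimum of 50 set for comparisons, so 45 genes were compared in H3K4me3 and 46 in H3K27ac.

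**Figure D1:**
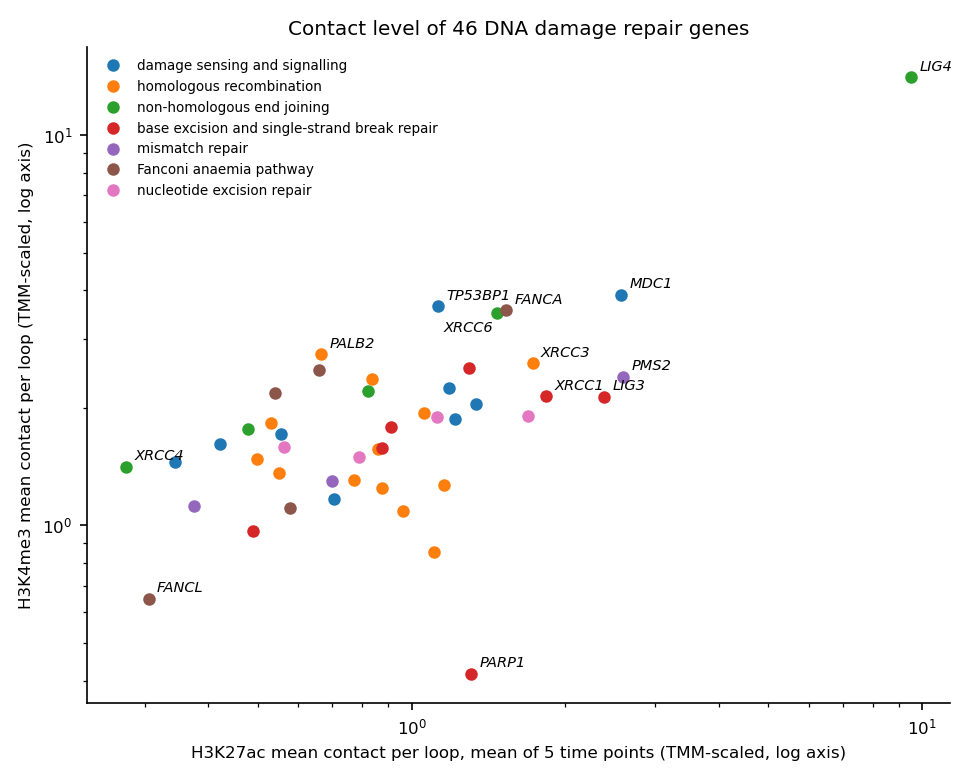
Mean contact per loop of the 46 repair promoters in H3K27ac (x axis) and H3K4me3 (y axis), TMM-scaled, on log axes, each point being the mean of 5 time points of 1 gene, colored by role. LIG4 stands above all others in both marks, at 9.51 and 14.1, and PARP1 is lowest in H3K4me3.

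Contact changes were measured as the log2 change of a promoter's contact from 0 m, less the median of the promoters in the same of 10 classes of mean contact, called the relative change below. A promoter was called when it was at or past 1.5-fold on this scale and its interval lay beyond that median. The centering removed shifts shared by all promoters, whose median log2 change over the 4 times of DHT was 0.25, 0.05, 0.12 and 0.14 in H3K27ac. The H3K4me3 medians were 0.03, 0.22, 0.12 and -0.15. All 4 comparisons of a mark share the 0 m table, so that an error there enters each of them.

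In H3K27ac, 7 of the 46 genes were higher and 2 lower at 30 m, against 4% and 7.06% of the 13522 promoters compared. At 4 h none was called in either direction, against 2.11% and 1.11%. PARP1, at -0.93 [-2.20 to 0.29], was past 1.5-fold there, but its interval on 15 and 11 read pairs included 0. At 16 h 7 were higher and 5 lower, against 9.41% and 10.2%, and at 72 h 6 were higher and 2 lower, against 8.29% and 8.99%. The called shares of repair genes, 15.2% higher and 4.35% lower at 30 m, 15.2% and 10.9% at 16 h and 13.0% and 4.35% at 72 h, were read against these backgrounds with no test, since the genes were chosen with results known. The excess over the background was widest for the higher genes at 30 m, where it depended on the centering, and the lower shares lay near or under theirs. The median relative change of the 46 was 0.07, -0.06, 0.05 and 0.11 over these times, against 0 over all promoters. Over the 26 genes whose promoter window no other gene shares, the median was -0.02 at 30 m and -0.10 at 72 h, so that the sign of the median depended on the other 20 genes at both times. At 16 h the median of the list was -0.05 with loops of at least 20 kb, a centered setting. With equal totals and no centering the list median was -0.10, beside -0.13 over all promoters.

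The direction of the calls depended in part on the settings. In both directions together, 11.1%, 19.7% and 17.3% of all promoters were called at 30 m, 16 h and 72 h. With read pairs scaled to equal totals in place of the centering, 5 genes were higher and 7 lower at 16 h, 6 higher and 5 lower at 72 h and 10 higher and 1 lower at 30 m, while 23.1%, 17.3% and 14.7% of all promoters were called. Without centering, shifts shared by all promoters enter such splits. Their median log2 change with equal totals was -0.13 at 16 h, -0.03 at 72 h and 0.15 at 30 m. The direction of calls over all promoters was not counted in these settings. On the deposited scale without centering the split was 11 and 1 at 30 m, 7 and 5 at 16 h and 9 and 1 at 72 h, beside 19.0%, 23.3% and 20.3% of all promoters. The split of 6 higher and 2 lower at 72 h became 6 and 6 of 45 genes with loops of at least 20 kb, where 15.1% of all promoters were called, and 6 and 5 of 44 without the strongest loop, where 14.9% were. It became 6 and 4 centered on all promoters, beside 17.3%, and 5 and 4 within classes of GC content, beside 17.03%. Centered within 10 classes of GC content of the loop anchors, an alternative added after the data were seen, 4 of 46 genes were called at 30 m in place of 9, a share under the 10.8% of all promoters called in that setting. The 30 m calls of NBN, PALB2, BARD1, MSH3 and FANCI ended there, while those of 16 h stayed at 12. BARD1 was still at -0.56 there, just under 1.5-fold. MSH3 stayed past 1.5-fold, at 0.70 or more in every alternative, so that its interval ended the call. Called genes at 30 m had loop anchors of a median 52.2% GC when higher and 38.7% when lower, against 46.7% in the rest, and the part of base composition in the 30 m calls was not tested further.

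In H3K4me3 the same promoters were nearly all within 1.5-fold. No repair gene was called at 30 m, against 0.597% higher and 1.54% lower of 14074 promoters, nor at 16 h, against 1.21% and 1.17%, nor at 72 h, against 1.3% and 1.52%. At 4 h, in the deepest library, LIG4 alone was higher and none lower of 45, against 4.55% and 5.95%. The median relative change was -0.01, 0.08, -0.01 and -0.01 over the 4 time points.

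**Figure D2:**
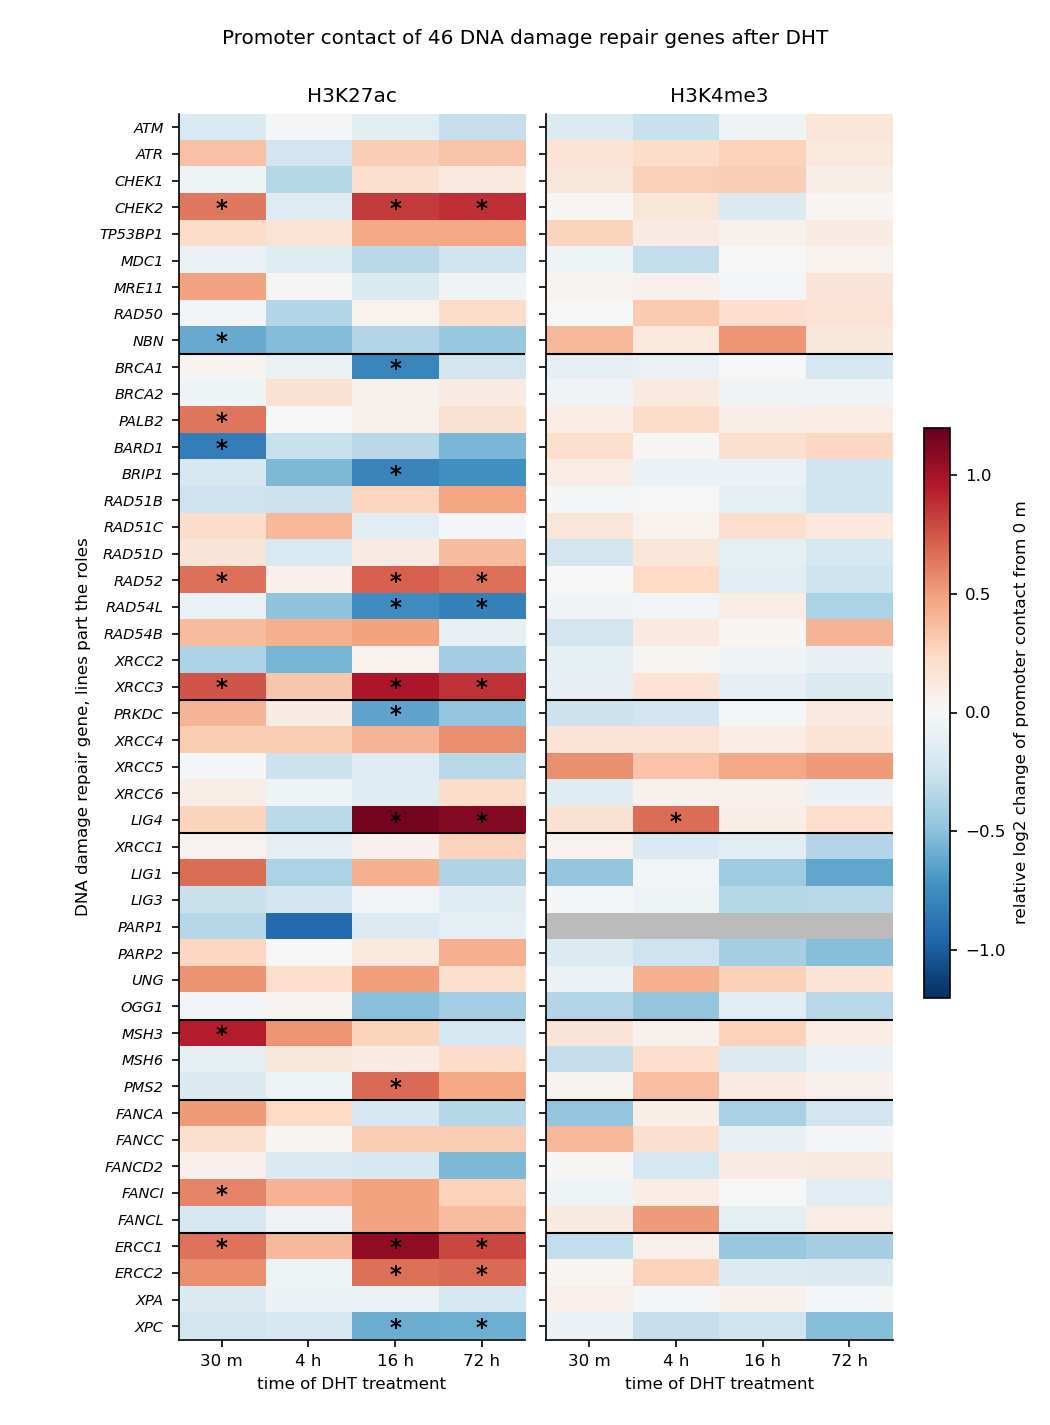
Relative log2 change of promoter contact from 0 m (color) for 46 repair genes (rows, parted by role) at 4 times of DHT (columns) in H3K27ac (left) and H3K4me3 (right). Asterisks mark the called genes and grey marks PARP1, which had too few H3K4me3 read pairs. Most asterisks stand in H3K27ac, with 9, 0, 12 and 8 per time point, and 1 in H3K4me3.

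Levels below are contacts per loop in the order of time, from 0 m to 72 h, and positions are on GRCh37.

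Among the 9 genes of damage sensing and signaling, CHEK2 alone was called at more than 1 time point. CHEK2, the kinase that carries the ATM signal to cell cycle arrest, starts at chr22:29137808, minus strand, and had 89 loops. Its H3K27ac contact was 0.868, 1.60, 0.795, 1.67 and 1.75, so that 0 m and 4 h were low and the other 3 times were high. Its relative change was 0.64 [0.43 to 0.84] at 30 m, 0.84 [0.63 to 1.05] at 16 h and 0.88 [0.66 to 1.09] at 72 h. In H3K4me3 it read 1.95, 2.04, 2.57, 1.88 and 1.81, with a peak in the deep 4 h table and a relative change of -0.18 [-0.33 to -0.02] at 16 h. From 0 m to 16 h, 51 of its loops had more H3K27ac contact and 25 had less. The largest gain was in its strongest loop, of 5 kb, to an intron of HSCB at chr22:29142001-29143000, with 43, 133, 50, 134 and 116 read pairs and a log2 change of 1.17 [0.67 to 1.70] at 16 h. Next came a loop of 60 kb to the promoter of XBP1, a factor of the unfolded protein response, which went from 22 to 81 read pairs, a change of 1.41 [0.72 to 2.16]. With loops under 20 kb left out, CHEK2 was still called at 16 h, at 0.81, and at 72 h, at 0.81, but at 30 m it was not, at 0.57. The 30 m call also ended with anchors widened to their 5 kb bin (0.58) and on the loops of the H3K27ac set, those in both sets included (0.43), so that it was kept in 6 of 9 alternatives.

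MDC1, the scaffold on damaged chromatin, had H3K27ac contacts of 2.52, 3.06, 2.38, 2.40 and 2.49, highest at 30 m, and H3K4me3 contacts of 4.08, 3.94, 3.79, 4.28 and 3.43. TP53BP1, which steers breaks toward end joining, read 0.865, 1.18, 1.01, 1.26 and 1.32 in H3K27ac and 3.38, 4.10, 4.13, 3.68 and 2.95 in H3K4me3. Its relative change in H3K27ac was 0.46 [-0.03 to 0.96] at 16 h, within 1.5-fold. CHEK1, the checkpoint kinase downstream of ATR, measured 1.10, 1.25, 0.884, 1.37 and 1.32 with H3K27ac and 1.94, 2.19, 2.76, 2.58 and 1.81 with H3K4me3, where its relative change of 0.30 [0.08 to 0.52] at 16 h was among the 3 highest of the list. NBN, a member of the MRE11 and RAD50 complex that binds broken ends, had opposite signs in the marks. It had 0.882, 0.650, 0.629, 0.684 and 0.672 in H3K27ac, lower after DHT and called at 30 m at -0.60 [-1.15 to -0.06] (kept in 3 of 9 alternatives), and 0.924, 1.27, 1.18, 1.47 and 0.993 in H3K4me3, with the highest relative change of the list at 16 h, 0.53 [0.08 to 0.99]. ATM, ATR, MRE11 and RAD50 were not called at any time and lay between -0.35 and 0.49 in H3K27ac.

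Homologous recombination held genes of both directions. At 16 h, 2 of its 13 genes were higher and 3 lower in H3K27ac, against 9.41% and 10.2% of all promoters. Their relative changes ran from -0.79 to 0.97 with a median of 0.05 over the 13. XRCC3, which acts in strand exchange, starts at chr14:104181788, minus strand. Its H3K27ac contact was 0.972, 2.08, 1.27, 2.24 and 2.06, and its relative change was 0.76 [0.48 to 1.04], 0.97 [0.69 to 1.26] and 0.87 [0.58 to 1.17] at 30 m, 16 h and 72 h. All 4 treated values exceeded that of 0 m, the least at 4 h. In H3K4me3 it read 2.61, 2.47, 3.36, 2.62 and 1.98, with no time past 1.5-fold. A loop of 5 kb into its own gene body, at chr14:104177001-104178000, also an intron of KLC1, held 46.9% of its H3K27ac contact. This loop had 53, 215, 108, 230 and 166 read pairs over the 5 times, a log2 change of 1.65 [1.21 to 2.11] at 16 h, and gave 62.5% of the net gain. Without loops under 20 kb, XRCC3 kept its call at 16 h with 0.63, and at 72 h its 0.52 no longer passed.

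RAD52, which anneals single strands and serves recombination when BRCA2 is lost, starts at chr12:1058860, minus strand. It had 0.592, 1.07, 0.629, 0.995 and 1.01 in H3K27ac and 1.49, 1.56, 2.08, 1.5 and 1.21 in H3K4me3, and its H3K27ac relative change was 0.66 [0.39 to 0.95], 0.72 [0.43 to 1.02] and 0.66 [0.36 to 0.96] at 30 m, 16 h and 72 h. The calls were kept in 9, 8 and 8 of 9 alternatives. Here the gain was spread over loops, 45 higher and 17 lower of 70 at 16 h. The strongest loop, of 5 kb, stayed level with a log2 change of -0.03 [-0.73 to 0.69]. A loop of 120 kb to an intron of WNK1 at chr12:937001-938000 went from 1 to 19 read pairs, a ratio whose log2 interval runs from 1.13 to 9.16, and a loop of 40 kb to the promoter of ERC1 from 9 to 26.

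RAD54L, a motor protein that remodels DNA during strand exchange, was the gene of this route that was lower at 2 time points. Its H3K27ac contacts were 1.29, 1.43, 0.953, 0.817 and 0.810, with 4 h, 16 h and 72 h below 0 m, and its relative change was -0.74 [-1.32 to -0.17] at 16 h and -0.81 [-1.43 to -0.20] at 72 h. Its H3K4me3 contacts of 1.93, 1.94, 2.25, 2.25 and 1.35 were level up to 16 h and lower at 72 h. Of its 13 loops, 11 had less H3K27ac contact at 16 h and 1 had more. The strongest, of 55 kb to the promoters of LRRC41 and UQCRH, had 18, 26, 15, 17 and 9 read pairs and a change of -0.55 [-1.60 to 0.49], an interval that includes 0. Without that loop its 72 h value of -0.53 was no longer called.

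BRCA1, the scaffold that starts end resection, read 0.898, 1.05, 0.867, 0.531 and 0.833 in H3K27ac, and only 16 h was called, at -0.79 [-1.39 to -0.19]. In H3K4me3 it was 2.41, 2.30, 2.68, 2.60 and 1.86, so that the 16 h dip was not there. Its largest H3K27ac loss was at a loop of 125 kb to the promoter of RPL27, which had 8 read pairs at 0 m and 0 at 16 h. BRIP1, a helicase that binds BRCA1, had 0.657, 0.614, 0.452, 0.362 and 0.402 in H3K27ac, lowest at 16 h and 72 h, and 1.44, 1.61, 1.63, 1.52 and 1.18 in H3K4me3. It was called at 16 h, at -0.79 [-1.54 to -0.06], on 38 and 29 read pairs, and its 72 h value of -0.74 [-1.52 to 0.02] was not called because the interval reached past the median. BRIP1 lost its 16 h call in 3 of 9 alternatives.

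PALB2, which links BRCA1 to BRCA2, had the most loops of the list, 91, and H3K27ac contacts of 0.555, 0.971, 0.571, 0.572 and 0.656, high at 30 m alone, with a relative change of 0.64 [0.39 to 0.90] there, called in 6 of 9 alternatives. Its H3K4me3 contacts were 2.51, 2.71, 3.37, 2.86 and 2.29. BARD1, the partner of BRCA1 in its ubiquitin ligase, was lower at 30 m, with 1.17, 0.773, 1.0, 0.986 and 0.880 in H3K27ac and a relative change of -0.83 [-1.05 to -0.61]. In H3K4me3 BARD1 read 0.937, 1.13, 1.11, 1.18 and 1.09, where its 0.24 [0.01 to 0.48] at 72 h was among the 3 highest. RAD54B, a relative of RAD54L, had 0.441, 0.610, 0.594, 0.590 and 0.424 in H3K27ac and 1.66, 1.48, 2.13, 1.84 and 2.05 in H3K4me3, and was next to XRCC5 in H3K4me3 at 72 h with 0.41 [0.03 to 0.79]. BRCA2, RAD51B, RAD51C, RAD51D and XRCC2 were not called in either mark.

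Within non-homologous end joining, LIG4 and PRKDC went apart. LIG4 starts at chr13:108867884, minus strand, and had 5.29, 8.55, 4.59, 15.3 and 13.8 in H3K27ac, where 16 h and 72 h stood above the other 3 times. Its relative change of 1.14 [0.61 to 1.71] at 16 h and 1.10 [0.54 to 1.69] at 72 h was the highest of the 46 genes at both times. In H3K4me3 it read 12.1, 13.5, 20.9, 13.3 and 10.6, with its peak at 4 h, the only H3K4me3 call, at 0.67 [0.34 to 1.02]. A loop of 5 kb carried 99.8% of the H3K27ac contact, with 36, 94, 43, 144 and 105 read pairs, and ran to the promoter of ABHD13, whose start shares the LIG4 window. The 4 h call in H3K4me3 ended when centered on all promoters (0.57), with equal totals (0.56) and with anchors widened to their 5 kb bin (0.29). PRKDC, the catalytic subunit of DNA-PK, was lower at 16 h at -0.64 [-1.14 to -0.13], on 74 and 63 read pairs, and it lost the call without its strongest loop (-0.54) and without a minimum of read pairs (-0.52).

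XRCC5 (Ku80), which with XRCC6 binds free DNA ends, had 0.863, 0.973, 0.734, 0.790 and 0.740 in H3K27ac and 1.63, 2.48, 2.43, 2.43 and 2.06 in H3K4me3, where all treated values exceeded 0 m. Its H3K4me3 relative change was 0.46 [0.21 to 0.72] at 16 h and 0.51 [0.23 to 0.80] at 72 h, high in the list but within 1.5-fold. XRCC6 (Ku70) had 1.30, 1.72, 1.30, 1.32 and 1.73 in H3K27ac and 3.53, 3.21, 4.17, 3.83 and 2.73 in H3K4me3, and its relative change stayed between -0.15 and 0.22 in both marks. XRCC4, the partner of LIG4, was not called.

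No gene of base excision and single-strand break repair was called in either mark. LIG3, the ligase that works with XRCC1, read 2.30, 2.45, 2.05, 2.70 and 2.41 in H3K27ac and 2.25, 2.30, 2.57, 1.94 and 1.63 in H3K4me3. XRCC1, the scaffold it binds, read 1.56, 2.03, 1.5, 1.89 and 2.19 in H3K27ac and 2.21, 2.36, 2.33, 2.22 and 1.59 in H3K4me3. Both were level in H3K27ac within 1.5-fold. In H3K4me3 the group had a median relative change of -0.23 at 16 h and -0.34 at 72 h over 6 genes. LIG1, the replicative ligase, had 0.441, 0.750, 0.338, 0.566 and 0.351 in H3K27ac and 1.10, 0.825, 1.28, 0.902 and 0.733 in H3K4me3, with -0.43 [-1.02 to 0.16] and -0.63 [-1.32 to 0.05] at 16 h and 72 h. PARP2, a poly(ADP-ribose) polymerase beside PARP1, had 1.06, 1.5, 1.08, 1.25 and 1.58 in H3K27ac and 2.90, 2.68, 2.87, 2.38 and 1.80 in H3K4me3, where its relative change was -0.40 [-0.68 to -0.11] at 16 h and -0.51 [-0.86 to -0.17] at 72 h. The LIG1 interval at 72 h included 0, which is why its -0.63 was not called. UNG, the glycosylase that removes uracil, had relative changes above 0 in H3K4me3 at these times, with contacts of 1.31, 1.30, 2.08, 1.77 and 1.42 and relative changes of 0.28 [0.06 to 0.51] at 16 h and 0.17 [-0.08 to 0.42] at 72 h.

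Of the mismatch repair genes, MSH3 was higher at 30 m, at 0.94 [0.01 to 1.96], on 13 and 41 read pairs, and lost this call in 4 of 8 alternatives. PMS2, an endonuclease of mismatch repair, had 1.95, 2.22, 1.95, 3.75 and 3.12 in H3K27ac, with 16 h and 72 h above the rest, and was called at 16 h at 0.68 [0.43 to 0.94]. Its H3K4me3 contacts were 2.13, 2.25, 3.22, 2.46 and 1.96. A loop of 10 kb to an exon of AIMP2 at chr7:6057001-6058000 went from 65 to 195 read pairs, a change of 1.12 [0.70 to 1.54]. PMS2 has near-identical copies in the genome, whose part in its read pairs was not tested. On the loops of the H3K27ac set, those in both sets included, its relative change was 0.34. MSH6 was within 1.5-fold throughout.

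The Fanconi anaemia genes, which clear crosslinks between strands, had 1 call. FANCI was higher at 30 m in H3K27ac, at 0.60 [0.16 to 1.05], and kept the call in 4 of 9 alternatives. FANCA, of the core complex, had 1.30, 2.31, 1.60, 1.27 and 1.18 in H3K27ac, highest at 30 m, and 4.01, 2.91, 4.84, 3.22 and 2.78 in H3K4me3, lowest at 72 h. FANCC, FANCD2 and FANCL were not called.

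Nucleotide excision repair had 2 genes higher and 1 lower of 4 at both 16 h and 72 h in H3K27ac. Over all promoters 9.41% were higher and 10.2% lower at 16 h, and 8.29% and 8.99% at 72 h. ERCC1, whose product forms with XPF the nuclease that cuts beside the lesion, starts at chr19:45927175, minus strand. It had 0.955, 1.90, 1.30, 2.35 and 1.93 in H3K27ac, with every treated value above 0 m, and 2.09, 1.76, 2.60, 1.66 and 1.44 in H3K4me3, with 16 h and 72 h below 0 m. Its H3K27ac relative change was 0.65 [0.24 to 1.07], 1.07 [0.66 to 1.49] and 0.80 [0.37 to 1.25] at 30 m, 16 h and 72 h, while in H3K4me3 it was the lowest of the list at 16 h, -0.45 [-0.78 to -0.13]. Of its 20 loops, 18 had more H3K27ac contact at 16 h and 2 had less. The strongest, of 20 kb, ran to chr19:45907001-45908000 in an intron of PPP1R13L, at the promoters of PPP1R13L and POLR1G, and had 14, 66, 29, 76 and 45 read pairs, a change of 1.97 [1.14 to 2.91] at 16 h. Without it ERCC1 lost its call at 30 m, with 0.54, and kept those at 16 h and 72 h. The 30 m call was kept in 7 of 9 alternatives. In H3K4me3 the same loop had a change of -0.20 [-0.79 to 0.41].

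ERCC2 (XPD), a helicase of the TFIIH complex, lies beside ERCC1 and starts at chr19:45873831, minus strand. It read 0.784, 1.35, 0.775, 1.31 and 1.38 in H3K27ac and 1.80, 1.89, 2.60, 1.75 and 1.45 in H3K4me3. Its H3K27ac relative change was 0.66 [0.22 to 1.10] at 16 h and 0.68 [0.23 to 1.14] at 72 h, and at 30 m it was 0.56 [0.14 to 0.99], just under 1.5-fold. A loop of 35 kb joined it to the same anchor at PPP1R13L and POLR1G that ERCC1 contacted, with 8, 30, 9, 25 and 28 read pairs. ERCC1 and ERCC2 thus share a partner region and part of their surroundings and are not independent. XPC, which recognizes distorted DNA, went the other way, with 0.686, 0.626, 0.601, 0.432 and 0.468 in H3K27ac, and relative changes of -0.60 [-1.15 to -0.05] at 16 h and -0.58 [-1.16 to -0.02] at 72 h, the latter exactly at 1.5-fold and kept in 6 of 9 alternatives. Its H3K4me3 contacts of 1.72, 1.72, 1.68, 1.63 and 1.17 were level to 16 h and had a relative change of -0.51 [-0.87 to -0.16] at 72 h. XPA was within 1.5-fold in both marks.

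**Figure D3:**
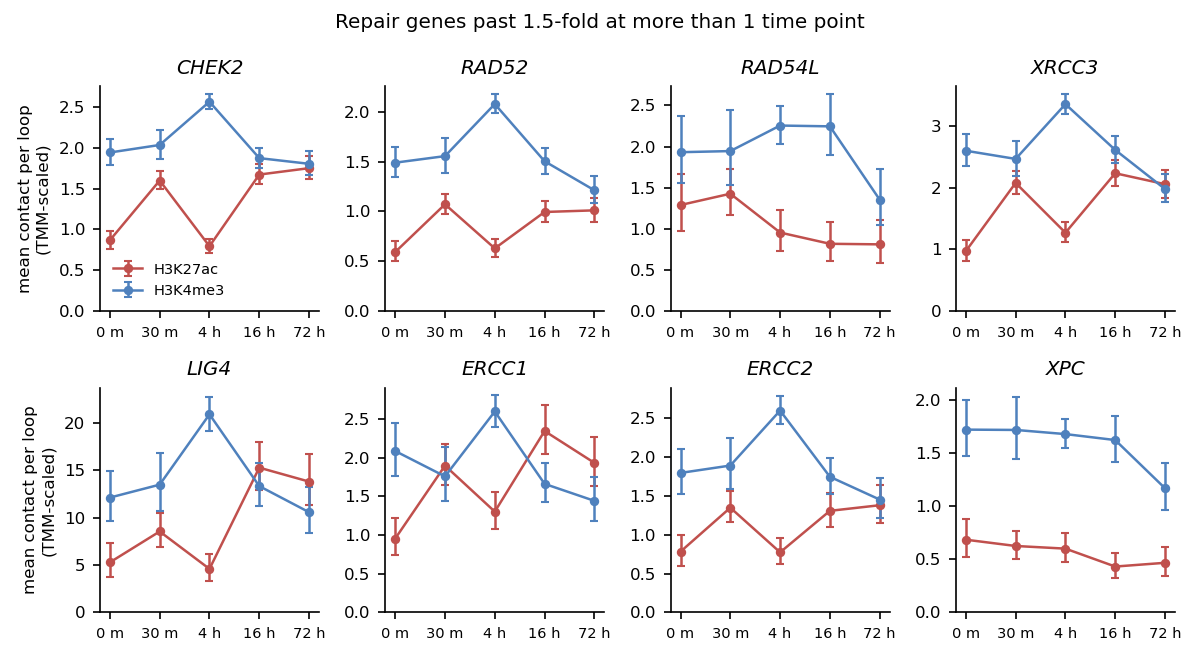
Mean contact per loop (y axis, TMM-scaled, from 0) against time of DHT (x axis) for the 8 repair genes called at more than 1 time point in 1 direction, with H3K27ac in red and H3K4me3 in blue. Bars are 95% Poisson intervals of the read pairs and show counting error only. In CHEK2, RAD52, XRCC3 and ERCC1 the H3K27ac points at 30 m, 16 h and 72 h lie above those at 0 m and 4 h, and RAD54L and XPC are lowest at 16 h and 72 h.

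Across the list, the H3K27ac and H3K4me3 relative changes had the same sign in 23, 28, 22 and 21 of 45 genes over the 4 times of DHT, that is 51.1%, 62.2%, 48.9% and 46.7%. The shares over all promoters compared in both marks were 52.1%, 43.6%, 51.4% and 51.7%.

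At 16 h, the change of H3K27ac contact differed with loop length in repair genes and in all promoters. Loops of 5 to 15 kb were 4.86% of the repair loops but 38.5% of their H3K27ac contact, and had a pooled log2 change of 0.50 [0.41 to 0.58] at 16 h, against 0.57 [0.57 to 0.58] over all promoter loops. Loops of 20 to 95 kb had 0.23 [0.13 to 0.32] against 0.13 [0.12 to 0.13]. Loops of 100 to 495 kb had 0.02 [-0.07 to 0.12] against 0.03 [0.03 to 0.04], and those of 500 kb and more had 0.01 [-0.21 to 0.23] against 0.00 [-0.01 to 0.02]. The short loops had the largest gain in both at 16 h, and from 100 kb on the repair intervals included 0. Among the repair loops at 30 m and 72 h the longest class did not have the lowest value. At 72 h they had 0.45 [0.36 to 0.53], 0.19 [0.09 to 0.29], 0.14 [0.04 to 0.24] and 0.24 [0.02 to 0.47] from the shortest class to the longest, the last 3 with overlapping intervals, beside 0.46, 0.13, 0.07 and 0.11 over all promoter loops. At 30 m they had 0.48, 0.38, 0.15 [0.06 to 0.24] and 0.20 [0.00 to 0.41], beside 0.45, 0.25, 0.11 and -0.02 over all promoter loops. In H3K4me3 at 16 h the 4 classes had 0.15, 0.04, 0.14 and 0.22, with no such order. Without loops under 20 kb, ERCC2 had 1.01 at 16 h and 1.11 at 72 h and RAD52 had 0.90 and 0.80, each above its value with all loops, while XRCC3 was lower. The strongest loops of CHEK2, XRCC3, LIG4, ERCC2 and RAD52 were 5 kb long, and LIG4 has too few read pairs left for a value without them. The part of loop length in these changes was not tested further.

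**Figure D4:**
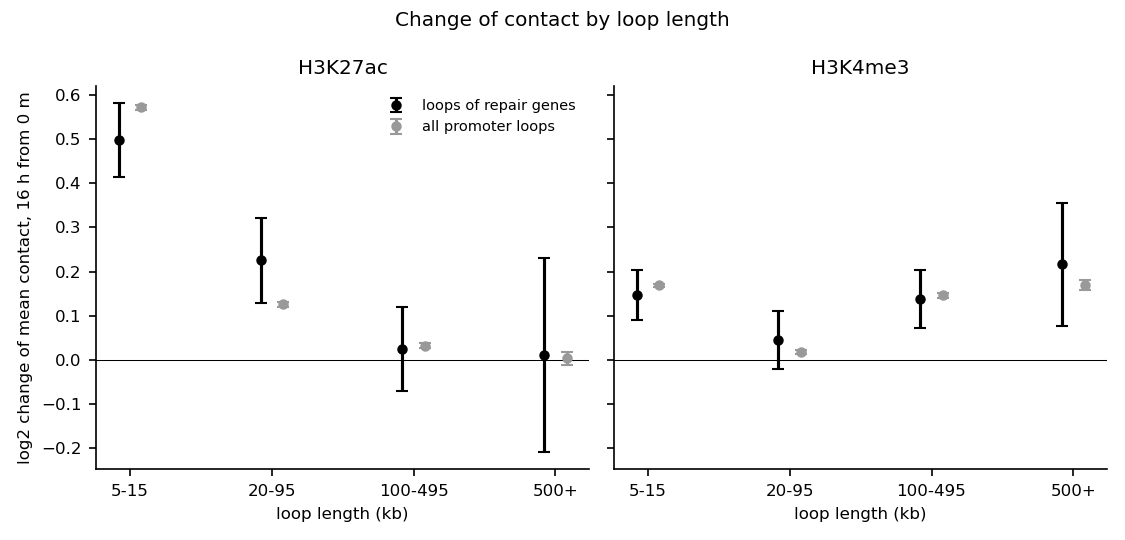
Pooled log2 change of mean contact from 0 m to 16 h (y axis) by loop length in kb (x axis) for loops of repair genes (black) and all promoter loops (grey), H3K27ac left and H3K4me3 right, with 95% counting intervals. In H3K27ac the repair loops go from 0.50 in the shortest class to 0.01 in the longest, beside 0.57 and 0.00 for all promoter loops.

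Pooled over their 1729 loops, the repair genes had H3K27ac contacts of 0.849, 1.08, 0.824, 1.02 and 1.03 and log2 changes of 0.34 [0.29 to 0.39], -0.04 [-0.10 to 0.01], 0.26 [0.21 to 0.31] and 0.27 [0.22 to 0.33], against 0.28, 0.03, 0.28 and 0.25 over all promoter loops. In H3K4me3 the contacts were 1.78, 1.83, 2.2, 1.94 and 1.60, and the changes were 0.04, 0.30, 0.12 and -0.15 against 0.05, 0.26, 0.12 and -0.16. The repair intervals included 0 in H3K27ac at 4 h and in H3K4me3 at 30 m. Repair loops called in both loop sets had 0.48 [0.39 to 0.56] in H3K27ac at 16 h, and those of the H3K4me3 set alone had 0.06 [-0.02 to 0.15], beside 0.48 and 0.03 over all promoter loops.

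Pairs of repair genes were joined by 3 loops. LIG3 and RAD51D lie 140 kb apart on chromosome 17, and their loop had 3.53, 3.42, 3.42, 5.31 and 5.00 in H3K27ac, on 12, 19, 16, 25 and 19 read pairs. The loop was highest at 16 h and 72 h, but it has too few read pairs to read a rise and no interval is given. In H3K4me3 it had 4.23, 2.73, 6.97, 4.25 and 1.92. ERCC2 and ERCC1, 55 kb apart on chromosome 19, had 1, 7, 4, 10 and 5 read pairs in H3K27ac and 5, 3, 35, 5 and 1 in H3K4me3. OGG1 and FANCD2, 275 kb apart on chromosome 3, had 0 to 2 in H3K27ac and 0 to 13 in H3K4me3, too few to compare.

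Genes beyond the list place these values. Of 74 other repair genes, 72 were compared in H3K27ac, with 6 higher and 7 lower at 16 h and a median relative change of -0.12, and 73 in H3K4me3, with 1 higher and none lower and a median of 0.01. Androgen-induced genes, 23 by a list of textbook targets, had 10 of 22 higher and none lower in H3K4me3 at 16 h, with a median of 0.46 against -0.01 for the repair genes. In H3K27ac at 16 h 3 of 20 were higher, with a median of 0.28 against 0.05. The medians lay farthest apart in H3K4me3, where the 45 values ran from -0.45 to 0.53 and the 22 from -1.10 to 1.53, ranges that overlap. No test of this difference was made.

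**Figure D5:**
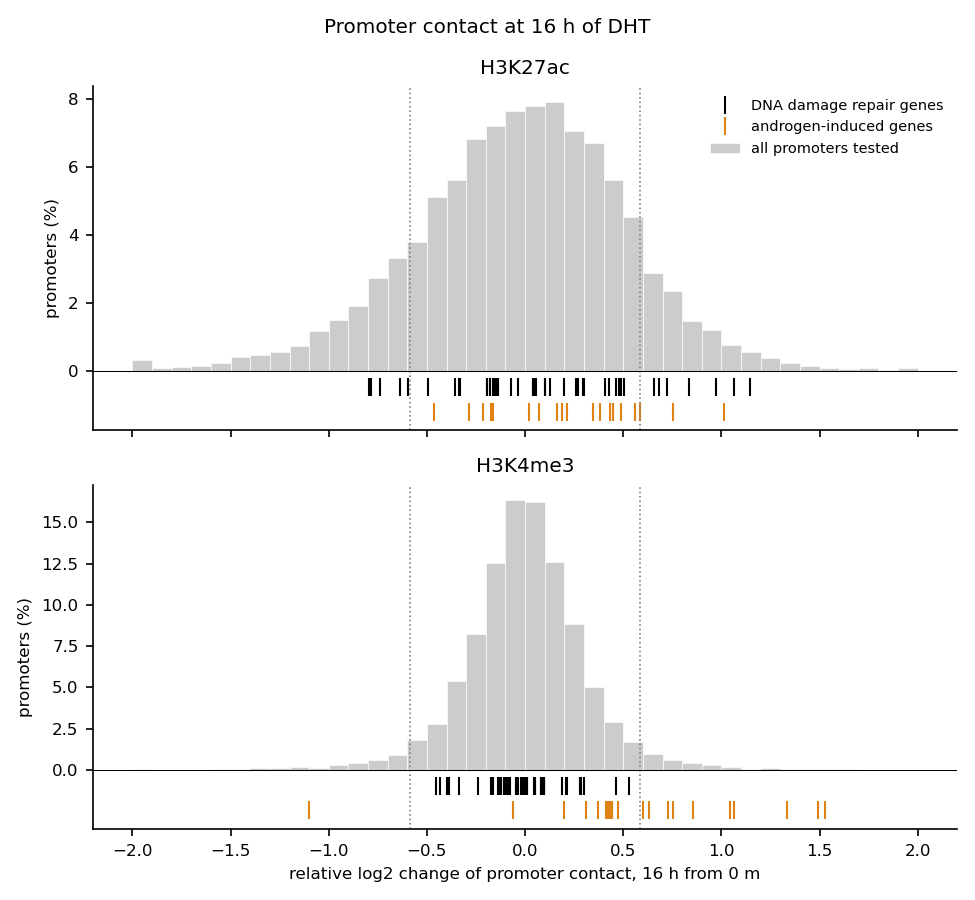
Relative log2 change of promoter contact at 16 h (x axis) over all promoters compared (grey bars, percent of promoters, the outermost bars holding all values beyond them), with repair genes (black ticks) and androgen-induced genes (orange ticks), H3K27ac above and H3K4me3 below. Dotted lines mark 1.5-fold. The repair genes spread with the bars, from -0.79 to 1.14 in H3K27ac and from -0.45 to 0.53 in H3K4me3, and 10 androgen-induced genes were called higher in H3K4me3.

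Several promoters are shared. The windows of 20 of the 46 genes overlap the window of another protein-coding gene, among them CHEK2 with HSCB, XRCC3 with ZFYVE21, LIG4 with ABHD13, PMS2 with AIMP2, PRKDC with MCM4, XPC with LSM3, PALB2 with DCTN5 and ATM with NPAT, and their contacts cannot be split between the genes. Among the 26 genes with a window of their own, 3 were higher and 2 lower at 30 m, 3 and 3 at 16 h and 3 and 1 at 72 h in H3K27ac, against 11.1%, 19.7% and 17.3% of all promoters called in either direction, and at 72 h their share was under that background. Called were ERCC1, ERCC2, RAD52 and RAD54L at both of the later times. GC content of the loop anchors had a rank correlation with the relative change over the 46 genes in H3K27ac of 0.34, 0.10, -0.0029 and 0.10 over the 4 times of DHT, beside 0.18, 0.14, -0.12 and -0.15 over all promoters. In H3K4me3 it was -0.41, -0.07, -0.18 and -0.23 over 45 genes, beside -0.29, -0.18, -0.26 and -0.21. These correlations are across genes that share libraries, and are given as descriptions.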

How the data were processed

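The members and gene lists were chosen with earlier results of these data known. The methods and the submitters' processing notes name Trim Galore 0.5.0, Bowtie2 and HiC-Pro 3.1.0 on hg19, with loops called once per mark over the merged time points. The authors deposited contact signal, 1 value per loop, mark and time point, scaled by TMM within a mark, and whether both H3K27ac replicates entered a value is not stated. All (100%) values were whole multiples of 1 step (tolerance 1e-06), which gave read pairs. No count test was possible without replicate columns, although the units allow one. Each of the 505995 anchor pairs of both loop sets was used once. Promoters came from Gencode release 44 lifted to GRCh37, on which 0 loops ran past the end of 25 chromosomes. Promoters compared had at least 50 read pairs in a mark and 5 at 0 m. Ratios have exact conditional binomial intervals, tested on simulated data. The text gives values in all tables for the 6 highest genes of each mark, those called at 2 or more time points, and the 3 highest and 3 lowest at 16 h and 72 h. Lists of 74 other repair genes, 23 androgen-induced genes and markers served as background. Alternatives, 9 set at the outset and 1 later, varied centering, scaling, filters and loops. Python 3.11.15, numpy 2.4.6, pandas 2.3.3, scipy 1.17.1 and matplotlib 3.10.9 were used.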

Additional observations from a re-analysis of the deposited data

How the results depend on the processing

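Of 80 alternative counts of called repair genes, 60 stayed within 1.5 times the value given. A count of 0 that stayed 0 passed this rule, and the rule ignores the direction of the calls. The H3K27ac median of the list went from 0.07 to 0.30 at 30 m and from 0.11 to 0.24 at 72 h on the deposited scale without centering. The medians over all promoters were 0.25 and 0.14 there. At 16 h the list median went from 0.05 to -0.10 with equal totals, beside -0.13 over all promoters. With loops of at least 20 kb it went to -0.05. Over called genes, 43 of 263 alternative values lost the call, among them NBN at 30 m in 6 of 9 and FANCI at 30 m in 5 of 9. Of the 263, 253 lay within the gene's own counting interval, 10 lay outside it and 0 reversed. Such intervals are wide where read pairs are few, so that lying within them does not mean a small move. MSH3 at 30 m ran from 0.70 to 1.42 within its interval. In H3K27ac the 9 calls at 30 m became 5 without genes that share a promoter window and 4 within GC classes, chosen after the data were seen. The 0 calls at 4 h became 1 of 46 with equal totals and 1 of 45 with loops of at least 20 kb. They became 2 of 44 on the loops of the same mark's set and 1 of 44 without the strongest loop. Over all promoters 3.099%, 3.05%, 3.65% and 2.99% were called in these settings, in the same order. Without genes that share a window, the 12 calls at 16 h became 6 and the 8 at 72 h became 4, by construction, since 26 genes remain. In H3K4me3, no centering on the deposited scale gave 1, 4, 1 and 1 calls over the 4 time points, beside 2.004%, 14.98%, 3.51% and 6.30% of all promoters, so that the shares at 4 h, 16 h and 72 h lay under the background. The list medians were then 0.056, 0.30, 0.11 and -0.12, beside 0.031, 0.22, 0.12 and -0.15 over all promoters. The single call at 4 h became 0 when centered on all promoters, with equal totals, with anchors widened to 5 kb and without shared windows. Loops of at least 20 kb gave 1 call of 44 genes at 16 h and 1 at 72 h, beside 3.11% and 3.34% of all promoters. At 72 h leaving out the strongest loop gave 1 and GC classes gave 1, beside 3.26% and 3.67%. The cause was not tested. At 16 h CHEK2, XRCC3, ERCC1 and RAD54L kept their calls in 9 of 9 alternatives, LIG4 in 7 of the 7 that could be computed, and the others in 6 to 8 of 9. No paired analysis was possible because the tables hold 1 value per time point and carry no replicate columns. PARP1, MSH3, LIG1 and BRIP1 rest on under 200 H3K27ac read pairs over all times.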
